A study of Mus musculus with 2 samples.

Results

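Voltage-gated potassium channels open when a cell depolarises and let potassium out, which ends the action potential and sets how fast a neuron can fire again. Each pore is built from 4 alpha subunits around a central pathway, and a signature of a few residues lining that pathway selects potassium over sodium. The hippocampus is known for A-type currents in pyramidal cell dendrites, for the M current that restrains repetitive firing and for fast delayed rectifiers in interneurons, each carried by a different subfamily of these genes.

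The genes described here are those whose mouse symbol begins with Kcna, Kcnb, Kcnc, Kcnd, Kcnf, Kcng, Kcnh, Kcnq, Kcns, Kcnv or Kcnab followed by a number, and which have at least 1 transcript annotated as protein-coding. The rule gave 43 of 55536 annotated genes, of which 40 encode alpha subunits in 10 subfamilies and 3 encode the cytoplasmic beta subunits of the Kcnab subfamily. A further 3 symbols began the same way (Kcnab3os, Kcnd3os and Kcnq1ot1) but had no protein-coding transcript and were left out.

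Poly(A) RNA-seq was done on tissue labelled as layer of hippocampus, from adult mice, 6 months old. The strain was B6NCrl according to one label and C57BL/6 according to another, with no genetic change or treatment named. There was 1 group of 2 libraries, each made from 20 ng of RNA by Nextera tagmentation. The 2 libraries have separate biosample records under 1 donor code, and the labels do not say whether they came from separate animals, so the spread between them may be technical. One label calls the mice male while the field for sex was left as not collected.

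No second condition was measured, so no test between conditions exists and none is given. Levels are given in TPM, a unit that divides reads by transcript length, sums to the same total in each library and can be compared between genes. Reads are given in expected counts, which a program estimates where a read fits several transcripts. The libraries held 38921662 and 39499350 expected counts in genes, and a count of 0 allows up to 3 reads, or 0.0771 and 0.0760 CPM. Markers of pyramidal neurons (5 of 5 genes), dentate granule neurons (4 of 4), interneurons (5 of 5), astrocytes (4 of 4) and oligodendrocytes (4 of 4) reached 1 TPM in both libraries. The libraries differed in choroid plexus RNA: all 10 markers of that epithelium were more than 2-fold higher in replicate 1, with a summed level of 15302 TPM against 134 TPM, and none was at 0 reads. In RNA taken from tissue, fewer cells of a type and less RNA per cell cannot be told apart.

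The potassium pathway signature was located first, because it shows what the 40 alpha subunits share and where they part. It was searched in the translated coding sequence as 5 codons: threonine or serine, then valine, isoleucine, threonine, leucine or methionine, then glycine, then tyrosine or phenylalanine, then glycine. All 40 alpha subunit genes held it and 0 of the 3 beta subunit genes did, against 0.904% of 21782 mouse genes with a complete coding transcript (197 genes). The pattern describes the potassium signature itself, so its presence in the alpha subunits was no test of them. The channel genes were searched in their most abundant complete coding transcript. The 21782 genes, which include the channel genes, were searched in their longest. The fourth codon was for tyrosine in 32 genes and for phenylalanine in 8, and those 8 were the whole Kcnh subfamily. The stretch from 1 gene of 9 alpha subfamilies each is printed here with the 5 codons in capitals and 12 bases on either side, from the GENCODE M21 transcript on mm10.
Kcna1, chr6:126642216-126642254, minus strand: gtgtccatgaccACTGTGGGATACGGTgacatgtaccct
Kcnb2, chr1:15710034-15710072, plus strand: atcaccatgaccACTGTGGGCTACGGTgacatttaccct
Kcnc2, chr10:112456217-112456255, plus strand: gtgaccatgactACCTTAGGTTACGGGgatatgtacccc
Kcnd2, chr6:21217394-21714153, plus strand, across an intron: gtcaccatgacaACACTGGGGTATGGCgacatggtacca
Kcnf1, chr12:17175049-17175087, minus strand: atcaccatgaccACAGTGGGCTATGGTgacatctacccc
Kcng1, chr2:168262629-168262667, minus strand: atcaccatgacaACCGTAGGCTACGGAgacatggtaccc
Kcns3, chr12:11091563-11091601, minus strand: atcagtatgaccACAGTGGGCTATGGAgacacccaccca
Kcnv1, chr15:45109277-45109315, minus strand: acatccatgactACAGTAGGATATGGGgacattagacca
Kcnh3, chr15:99232917-99232955, plus strand: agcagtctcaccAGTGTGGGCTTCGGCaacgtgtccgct

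In the printed stretches the second codon is for valine in Kcna1, Kcnb2, Kcnf1, Kcng1, Kcns3, Kcnv1 and Kcnh3, and for leucine in Kcnc2 and Kcnd2. In Kcnd1, Kcnd2 and Kcnd3 an intron interrupts this window, whereas in the other 37 alpha subunit genes it lies within 1 exon. The coding sequence lay in 1 exon in 7 of 8 Kcna genes, with 2 in Kcna7, and in 1 exon in 3 other genes, while Kcnh genes had 11 to 16 coding exons and Kcnq genes 14 to 16. Kcna genes lie in clusters: Kcna3, Kcna2 and Kcna10 follow each other on chromosome 3 with gaps of 63.1 and 68.05 kb, and Kcna5, Kcna1 and Kcna6 on chromosome 6 with gaps of 105.0 and 61.9 kb. Neighbours in a cluster differed widely in level, since Kcna10 had 2 and 0 reads and Kcna5 had 9 and 11.0, beside Kcna2 with 2158 and 2351 reads and Kcna1 with 1641 and 1850.

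Of the 43 genes, 32 (74.4%) reached 1 TPM in both libraries, against 56.8% of all protein-coding genes. Their median was 3.94 TPM against 2.62 TPM for all protein-coding genes, but among genes at 1 TPM or more the median was 6.63 TPM against 13.2 TPM, so these genes were detected often and at moderate levels. Together they summed to 399.8 TPM and 438.2 TPM, or 48418 and 51529 expected counts. The 5 most abundant genes of each library held 51.6% and 52.8% of that sum. Ranked by mean TPM, 21 of the 31 neighbouring pairs among the 32 genes overlapped over the 2 libraries, so their order was not resolved. The top 2 places were resolved, since Kcnab2 and Kcnab1 overlapped with no other gene.

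**Figure D1:**
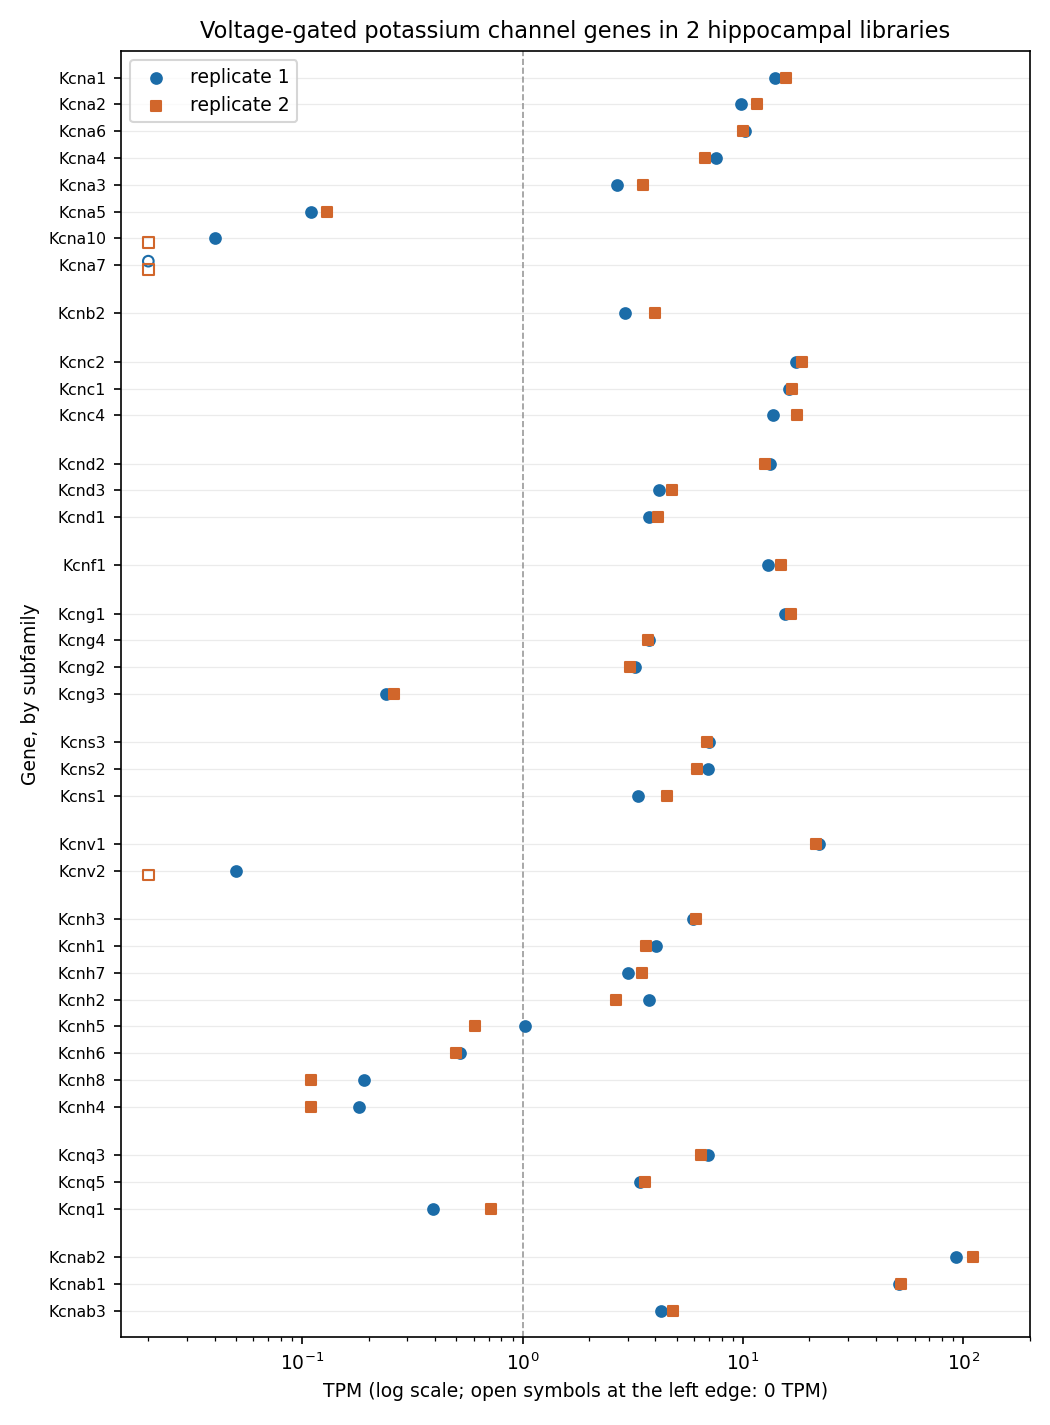
Level of 39 of the 43 genes in TPM (log scale), grouped by subfamily and sorted by mean within it, with replicate 1 as circles and replicate 2 as squares; the dashed line marks 1 TPM and open symbols at the left edge mark 0 TPM. The beta subunit gene Kcnab2 stands highest at 92.3 and 111 TPM, and 10 of the genes shown fall below 1 TPM in at least 1 library.

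The beta subunits made up the largest share. These proteins dock under the channel on its intracellular side, resemble aldo-keto reductases, and speed inactivation or aid surface delivery of Kcna channels. Kcnab2 was at 92.3 and 111 TPM, with 7849 and 8564 reads. Kcnab1 was at 51.1 and 52.1 TPM, and Kcnab3, the lowest of the 3, at 4.26 and 4.83 TPM. The subfamily held 37.6% ± 0.906 (SD, n = 2) of the summed TPM, more than any alpha subfamily in both libraries. Its coding sequences have 353 to 404 residues in the most abundant transcript. TPM divides by the length of the whole transcript, which is 3533 bases for Kcnab2, 3245 for Kcnab1 and 2538 for Kcnab3. By expected counts, which are not divided by length, the share of the subfamily was 26.9% ± 0.167 (SD, n = 2).

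**Figure D2:**
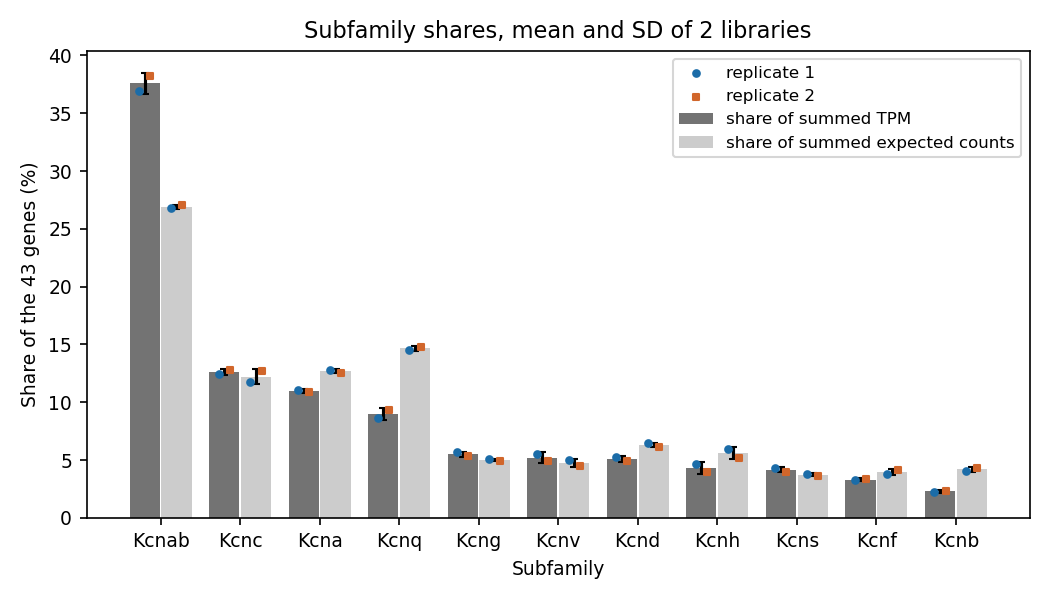
Share of each subfamily in the 43 genes (%), by summed TPM (dark bars) and summed expected counts (light bars); bars are means, error bars SD of 2 libraries, points the libraries. Kcnab leads on both scales at 37.6% and 26.9%, while Kcnq moves from 8.96% by TPM to 14.7% by counts.

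The Kcna alpha subunits (Kv1) open near the firing threshold and sit mainly in axons and at terminals. They took 11.0% ± 0.175 (SD, n = 2) of the TPM, with 5 of 8 genes at 1 TPM or more. Kcna1, the episodic ataxia gene, was at 14.0 and 15.65 TPM. Kcna2, which pairs with it along axons, was at 9.74 and 11.55 TPM. Kcna6 was at 10.2 and 9.96 TPM. Kcna2 and Kcna6 overlapped in level, and Kcna1 lay above both in each library. Kcna4, whose channels inactivate fast, was at 7.52 and 6.72 TPM, and Kcna3 at 2.68 and 3.51 TPM. The remaining Kcna genes were near nothing: Kcna5 was at 0.11 and 0.13 TPM, Kcna10 had 2 and 0 reads, and Kcna7 had 0 reads in both.

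Of the genes listed for proteins that assemble with Kcna channels, 9 of 9 reached 1 TPM in both libraries, and 0 of 9 differed 2-fold. Lgi1, a secreted protein that binds Adam22 and Adam23 beside these channels, was at 67.75 and 65.25 TPM. Adam22 itself was at 81.9 and 61.1 TPM, with 11253 and 5747 reads, a log2 ratio of 0.98 (95% counting interval 0.93 to 1.02). That ratio is of reads, and its interval holds the 2-fold limit. By TPM the libraries differed less for this gene. Cntnap2, which holds the channels beside the node of Ranvier, was at 15.1 and 17.4 TPM.

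The Kcnc alpha subunits (Kv3) open at strong depolarisation and close quickly, which allows fast spiking. All 4 passed 1 TPM, and the subfamily took 12.6% ± 0.240 (SD, n = 2) of the TPM, the most of any alpha subfamily on this scale. Kcnc2 was at 17.4 and 18.6 TPM. Kcnc1 was at 16.1 and 16.6 TPM. Kcnc4 was at 13.6 and 17.5 TPM, a range that spans that of Kcnc1. That range also overlapped with the range of Kcnc2, though Kcnc2 lay above Kcnc4 in each library. Kcnc1 and Kcnc2 did not overlap.

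The Kcnd alpha subunits (Kv4) carry the dendritic A-type current, and they took 5.10% ± 0.272 (SD, n = 2). Kcnd2, the main subunit of pyramidal cell dendrites, was at 13.25 and 12.6 TPM. Kcnd3 was at 4.15 and 4.77 TPM and Kcnd1 at 3.75 and 4.12 TPM, both below Kcnd2 in each library. The genes of their auxiliary subunits, the KChIP genes Kcnip1 to Kcnip4 and the dipeptidase-like Dpp6 and Dpp10, summed to 156.5 and 169.15 TPM, with 6 of 6 at 1 TPM or more. Kcnip4 led at 36.2 and 39.1 TPM, followed by Dpp6 at 35.4 and 38.0 TPM, whose ranges overlap. Dpp10 was lowest, at 9.02 and 9.72 TPM, below Kcnd2 in both libraries.

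The Kcnb alpha subunits (Kv2) cluster on cell bodies and proximal dendrites and bring the endoplasmic reticulum close to the membrane by binding Vapa and Vapb. By TPM they were the smallest of the 11 subfamilies, at 2.28% ± 0.10 (SD, n = 2), and by expected counts 4.18% ± 0.213. Kcnb2 was at 2.91 and 4 TPM. The partner Amigo1 was at 4.22 and 4.13 TPM, and Vapa at 119 and 126 TPM.

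The 10 genes of the Kcnf, Kcng, Kcns and Kcnv subfamilies are called silent, because their subunits form no channel alone and instead join Kcnb subunits and change their gating. Their summed level was 75.04 and 77.3 TPM, or 29.8% and 28.6% of all alpha subunit TPM. Kcnv1 was the highest silent gene, at 22.2 and 21.4 TPM. Kcng1 was at 15.4 and 16.5 TPM, and Kcnf1, the only gene of its subfamily, at 12.9 and 14.9 TPM. These 3 genes each lay above Kcnb2 in both libraries. Kcns3 was at 6.99 and 6.83 TPM, Kcns2 at 6.94 and 6.20 TPM and Kcns1 at 3.33 and 4.51 TPM. Kcng4 and Kcng2 lay between 3.06 and 3.73 TPM. Only 2 silent genes were under 1 TPM: Kcng3 at 0.24 and 0.26 TPM, and Kcnv2, a retinal gene, with 8 and 0 reads.

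The Kcnq alpha subunits (Kv7) open slowly below threshold and form the M channel at the axon initial segment. Kcnq3, a subunit of that channel, was at 6.93 and 6.45 TPM. Kcnq5 was at 3.40 and 3.59 TPM. Kcnq1, known from heart and epithelia, was low at 0.39 and 0.72 TPM. Kcnq transcripts are long, and the subfamily took 8.96% ± 0.506 (SD, n = 2) of the TPM but 14.7% ± 0.221 of the expected counts, where it passed Kcna and Kcnc. Of its partners, Ank3, the ankyrin that anchors these channels at the initial segment, was at 41.6 and 44.0 TPM.

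The Kcnh alpha subunits cover the EAG, ERG and ELK channels and took 4.29% ± 0.513 (SD, n = 2), with 4 of 8 genes at 1 TPM or more in both libraries. Kcnh3, the ELK channel of the forebrain, was highest at 5.91 and 6.09 TPM. Kcnh1 (EAG) was at 4.03 and 3.63 TPM, Kcnh7 (ERG) at 2.99 and 3.49 TPM and Kcnh2 (the hERG channel gene in humans) at 3.75 and 2.66 TPM. The range of Kcnh2 overlapped with those of Kcnh1 and Kcnh7. Kcnh5 straddled the limit at 1.02 and 0.61 TPM. Kcnh6, Kcnh8 and Kcnh4 lay between 0.11 and 0.52 TPM.

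Single-pass Kcne subunits, which alter the gating of Kcnq and other channels, were mostly low, with 1 of 5 at 1 TPM or more in both libraries. That gene was Kcne1l, at 6.20 and 6.36 TPM. Kcne2, known for joining Kcnq1 and Kcna3 in choroid plexus epithelium and Kcnh2 in heart, had 1019 reads in replicate 1 and 1 in replicate 2, a log2 ratio of 9.42 (95% counting interval 7.52 to 15.3). Of these partners, Kcnq1 had 14 and 31 reads and Kcna3 had 143 and 192, fewer in the library with the higher choroid plexus markers, while Kcnh2 had 327 and 224, more in that library.

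The spread between the libraries was taken as the log2 ratio of replicate 1 to replicate 2 after scaling, over the 34 genes whose expected counts averaged 50 or more. It compares these 2 libraries and not conditions. A 2-fold difference was reached by 1 of the 34 genes, or 2.94%, close to the 2.42% of all genes with that count. The second program gave no gene a 2-fold difference, so that call rests on the first program.

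**Figure D3:**
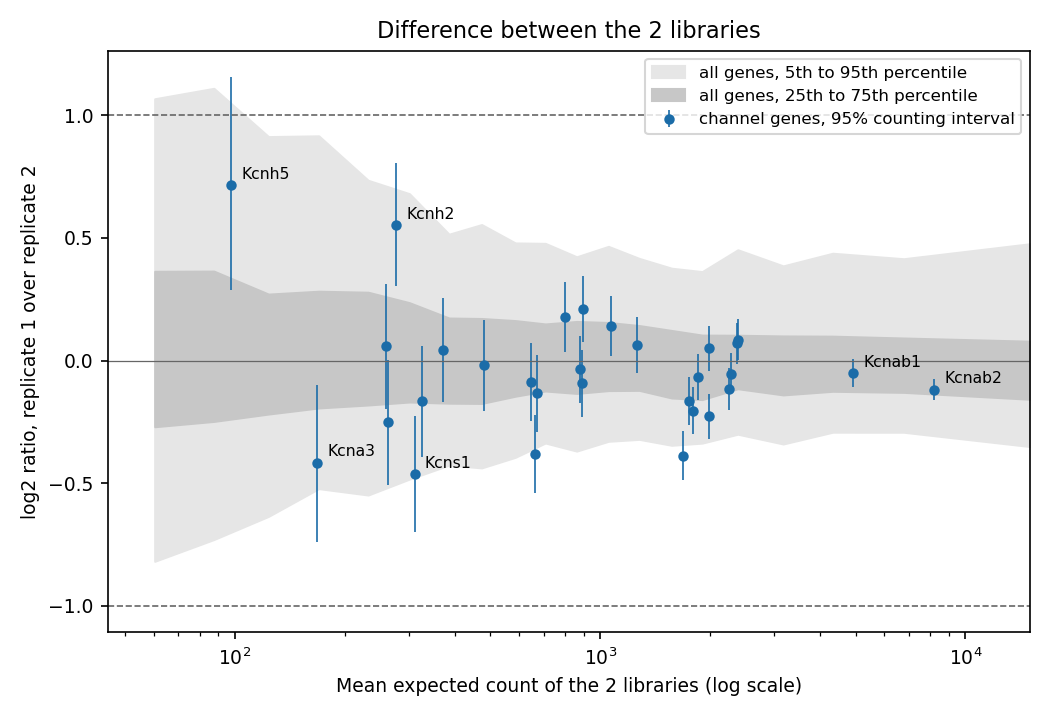
Log2 ratio of replicate 1 to replicate 2 against the mean expected count (log scale) for 30 of the 34 genes with a mean count of 50 or more, with 95% counting intervals; grey bands hold all genes of like count and dashed lines mark 2-fold. Of the genes shown, Kcns1 lies lowest at -0.46, and Kcnh5 and Kcnh2 stand highest at 0.71 and 0.55.

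The median ratio of the 34 genes was -0.08 on the log2 scale, against -0.005 for all genes, and 23 of them (67.6%) were lower in replicate 1 against 50.9% of all genes. The median size of the ratio was 0.13, against 0.16 over all genes. Intervals excluded 0 for 17 of the 34: 11 (32.4%) were lower in replicate 1, against 26.2% of all genes, and 6 (17.6%) were higher, against 26.1%. These intervals cover counting error only and leave out other variation between the libraries. PCR copies of a molecule could not be told apart, which can make the intervals too narrow. The lower genes included Kcnc4, with a log2 ratio of -0.39, and Kcns1, with -0.46. Of the 5 Kcnh genes with that count, 3 were higher in replicate 1, too few to set against the 50.9% of all genes that were lower. The highest ratios of the 34 genes, named here for their size, were those of Kcnh5 and Kcnh2. Kcnh2 had 327 and 224 reads, a log2 ratio of 0.55 (95% counting interval 0.30 to 0.80), and Kcnh5 had 121 and 74, a log2 ratio of 0.71 (0.29 to 1.15). Marker genes of several cell types also differed between the libraries. Besides the choroid plexus list, all 3 ependyma markers were higher in replicate 1 (log2 ratios 0.28 to 0.60, summed level 94.9 against 69.6 TPM), while all 5 pyramidal neuron markers were lower (-0.40 to -0.20, summed level 1690 against 2032 TPM). Single genes of the neocortex, thalamus and striatum lists were higher in replicate 1, namely Rorb with a log2 ratio of 1.48, Tcf7l2 with 0.67 and Ppp1r1b with 0.64, which were picked after their values were seen. Other genes of these lists were lower in replicate 1: Ntng1 (-0.58) and Slc17a6 (-0.40) of thalamus, and Fezf2 (-0.21) of neocortex. For the rest, Prkcd (-0.03), Lef1 (-0.07), Rspo1 (0.21), Adora2a (0.18) and Drd2 (0.46), the counting intervals held 0. The part of these markers in the differences of the channel genes was not tested.

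The 43 genes have 155 annotated transcripts, 102 of them protein-coding. Which transcript led was asked of 2 programs, because short reads that fit several transcripts have to be divided by a model. Of the 27 genes at 1 TPM or more with several transcripts, 21 (77.8%) had the same leading transcript in both libraries and both programs, against 80.0% of all such genes. The programs differed in both libraries for 2 genes, among them Kcna6. For Kcna2 and Kcnh1 they gave the same answer but the libraries differed; both leading Kcna2 transcripts encode the same 499 residues. The leading transcripts of Kcnh2 and Kcnh7 also changed between settings.

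Transcripts with an identical coding sequence were then joined into coding forms, and 22 of the 32 genes at 1 TPM or more had 1 form. A second form held at least 20% of the complete coding TPM in both libraries and both programs in 5 genes: Kcnab2, Kcnc1, Kcnc2, Kcnh2 and Kcnh7. Neither count was computed over all genes, so whether these genes differ from others in this is not known. In Kcnc1 the form of 585 residues took 65.1% and 60.9% by the first program and 65.9% and 61.5% by the second. The form of 511 residues took the rest, and the 4 estimates lay within 34.1% to 39.1%. By reads the order was the reverse. The form of 511 residues had 924 and 1160 reads in the first program, against 681 and 713 for the form of 585 residues. In the second program it had 1231 and 1585, against 944 and 1004. Its transcript has 7760 bases against 3156, and TPM divides by that length. The forms differ from coding base 1505 on. The longer one goes on for 251 bases over 2 exons, the first 90 of which are printed, and the shorter one for 29 bases; capitals mark the bases that are coding in that form only.
Kcnc1, 585 residues, chr7:46435158-46437333, plus strand: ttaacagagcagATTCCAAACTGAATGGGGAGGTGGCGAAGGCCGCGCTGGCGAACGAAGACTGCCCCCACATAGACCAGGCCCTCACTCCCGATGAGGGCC
Kcnc1, 511 residues, chr7:46428280-46428308, plus strand: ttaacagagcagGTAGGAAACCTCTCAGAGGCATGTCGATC

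Kcnc2 also has 2 endings, with forms of 642 and 639 residues that exchange their last coding exon. The form of 642 residues took 74.1% and 64.1% by the first program and 76.4% and 68.9% by the second, and so led throughout. The form of 639 residues took between 23.2% and 34.9%. The first 90 bases of each ending are shown in capitals after the last 12 shared bases.
Kcnc2, 642 residues, chr10:112463117-112463250, plus strand: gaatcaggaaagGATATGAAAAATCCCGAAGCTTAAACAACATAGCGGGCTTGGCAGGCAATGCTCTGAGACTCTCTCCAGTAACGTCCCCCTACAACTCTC
Kcnc2, 639 residues, chr10:112461965-112462089, plus strand: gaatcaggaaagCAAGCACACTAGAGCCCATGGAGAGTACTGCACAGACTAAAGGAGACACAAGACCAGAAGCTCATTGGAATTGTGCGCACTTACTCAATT

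In Kcnab2 the forms of 353 and 367 residues differ by 1 exon of 42 bases near the start. The longer one holds it, shown in capitals.
Kcnab2, 367 residues, chr4:152434782-152434823, minus strand: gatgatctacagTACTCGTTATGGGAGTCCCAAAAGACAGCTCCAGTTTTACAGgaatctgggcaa
The form of 353 residues took 47.6% and 43.3% by the first program and 41.4% and 35.8% by the second, which put the form of 367 residues ahead at 47.0% and 51.2%. Their order therefore depended on the program.

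In Kcnh2 the form of 820 residues starts from its own first exon of 108 coding bases, shown in capitals, and lacks the 1134 coding bases that open the form of 1162 residues. That long start encodes the PAS domain, which slows closing of ERG channels.
Kcnh2, 820 residues, chr5:24329165-24329272, minus strand: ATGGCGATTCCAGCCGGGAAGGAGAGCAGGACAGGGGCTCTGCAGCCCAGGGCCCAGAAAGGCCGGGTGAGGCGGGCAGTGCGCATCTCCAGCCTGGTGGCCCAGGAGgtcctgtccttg
The short form took 69.5% and 56.4% by the first program, and 62.0% and 35.1% by the second. It led in 3 of these 4 estimates, on 198 and 104 reads in the first program and 241 and 83.0 in the second. In Kcnh7 the form of 522 residues, which ends before the pore, took 27.3% and 34.8% by the first program and 40.1% and 49.9% by the second. It rested on 68.2 and 96.5 reads in the first program and 174 and 249.6 in the second. Kcnh7 exons share 696 bases with Gca on the opposite strand, and no source used here states whether reads were counted by strand.

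The Kcnh1 forms changed places between the libraries in both programs. The form of 989 residues holds 81 bases, shown in capitals, that prolong an exon ahead of the pore signature, and the form of 962 residues lacks them.
Kcnh1, 989 residues, chr1:192277091-192277171, plus strand: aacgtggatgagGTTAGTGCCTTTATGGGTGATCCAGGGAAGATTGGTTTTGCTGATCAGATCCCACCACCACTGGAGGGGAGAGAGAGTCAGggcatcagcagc
The form of 962 residues took 81.4% in replicate 1 and 36.7% in replicate 2 by the first program, and 83.0% and 44.8% by the second. By the first program, expected counts for that form were 657 and 235, and for the form of 989 residues 151 and 409, while the gene as a whole differed by a log2 ratio of 0.18. With 2 libraries no test of this shift was possible.

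Kcnd3, chosen after its values were seen, also had forms that differed between the libraries. Its form of 655 residues holds an exon of 57 bases, shown in capitals, that the form of 636 residues lacks.
Kcnd3, 655 residues, chr3:105666962-105667018, plus strand: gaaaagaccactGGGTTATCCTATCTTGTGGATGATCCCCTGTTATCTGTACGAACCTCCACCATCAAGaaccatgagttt
The long form took 3.19% in replicate 1 and 14.4% in replicate 2 by the first program, and 4.04% and 18.4% by the second. Those shares rest on 8.84 and 40.9 reads in the first program and 15.1 and 76.4 in the second.

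**Figure D4:**
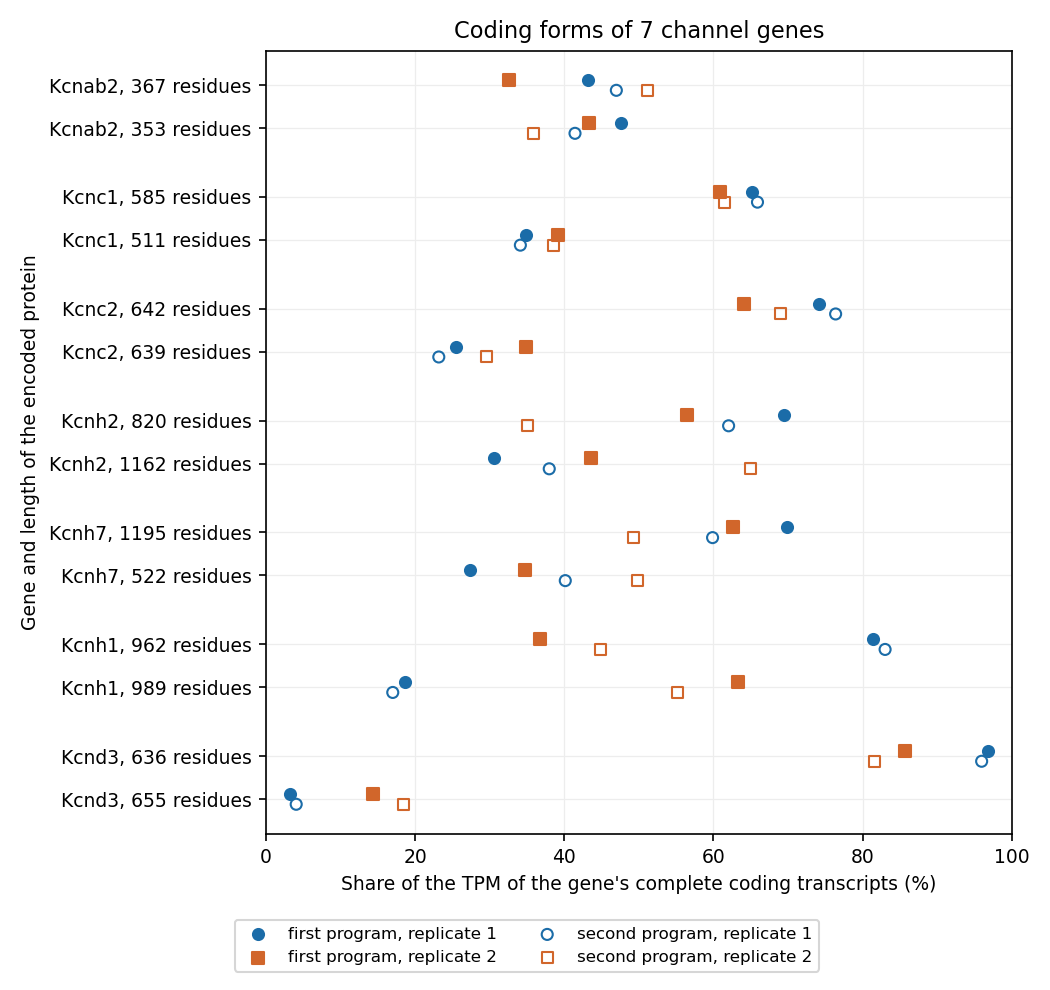
Share of each named coding form except the Kcnab2 form of 382 residues in the TPM of its gene's complete coding transcripts (%), for 7 genes. Filled symbols are the first program and open symbols the second, with circles for replicate 1 and squares for replicate 2. Kcnc1 forms keep their order at 60.9% to 65.9% against 34.1% to 39.1%, while the Kcnh1 forms change places between the libraries.

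Part of the gene level came from transcripts not annotated as protein-coding. By the first program that part was at least 5% in 1 or both libraries for 12 of the 32 genes at 1 TPM or more. The same share over all genes was not computed, so this count is not a trait of these genes. In Kcnd1 a processed transcript of 751 bases took 67.2% and 64.4% of the TPM and led in both libraries and programs, on 46.1 and 50.3 reads of 238 and 285 for the gene in the first program. In Kcnc1 the part was 29.2% and 24.7%, in a processed transcript of 531 bases. It rested on 54.4 and 49.8 reads of 1659 and 1922 for the gene, as TPM divides reads by length. Kcnv1 had 21.5% and 25.05% in a transcript with a retained intron, and 30.7% and 40.0% by the second program. The first program gave that transcript 179 and 207 reads of 2425 and 2322 for the gene.

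In Kcna6 the part without a coding label was 41.9% in replicate 1 and 86.2% in replicate 2 by the first program, but 89.4% and 85.9% by the second, so the difference between the libraries was seen in 1 program. The first program gave a transcript annotated for nonsense-mediated decay 3.14 and 719 expected counts. The protein-coding transcript, of 5836 bases, had 1029 and 242 expected counts, while the gene had 1283 and 1234. The decay transcript has nearly the same length, 5827 bases, and the second program gave it 53.9% and 51.5% in the 2 libraries. A further 2355 of the 5945 exon bases of Kcna6 overlap Gm26673 on the opposite strand, which had 35.5 and 63.5 reads. By the first program, the level of the gene thus had a smaller spread than that of its coding transcript.

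**Figure D5:**
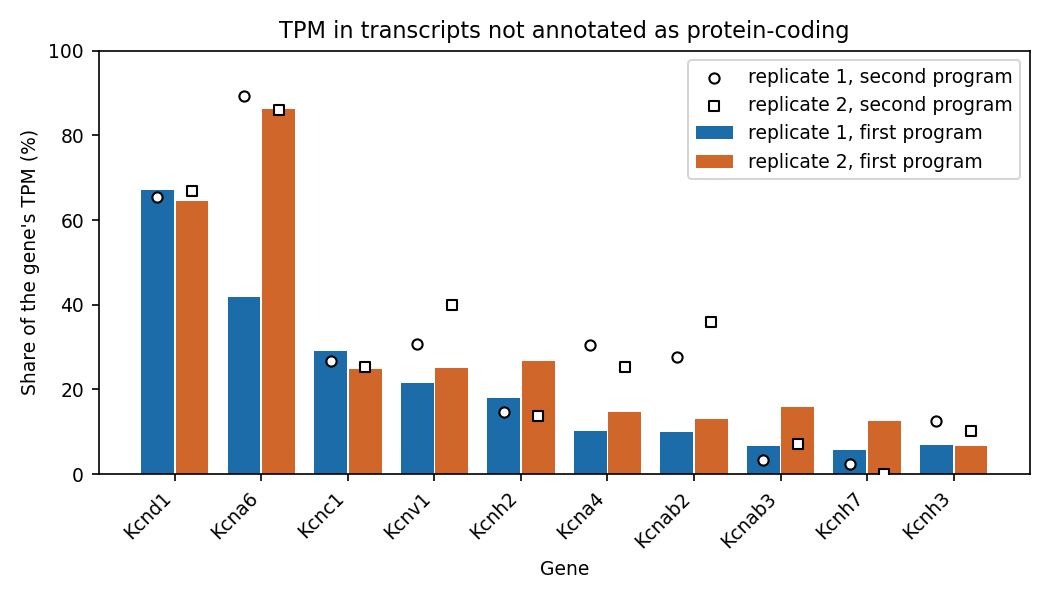
Share of each gene's TPM in transcripts not annotated as protein-coding (%), for 10 genes where it reached 5% in at least 1 library by the first program; bars are the first program (blue replicate 1, orange replicate 2) and open symbols the second (circle replicate 1, square replicate 2). Kcnd1 is high throughout at 64.4% to 67.2%, while for Kcna6 the programs part in replicate 1, at 41.9% and 89.4%.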

How the data were processed

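The deposited gene tables hold expected counts, TPM and FPKM per gene from 1 program, and the deposited transcript tables hold the same units from that program and estimated counts and TPM from a second; both were made by the authors on mm10 with GENCODE M21, per the file headers. The aligner, the program names and the strand setting were not given in the sources used here. Genes and lists were chosen with earlier results of these data known.

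Gene identifiers were joined between tables. Expected counts were scaled with TMM factors from edgeR 4.0.16 in R 4.3.3, and log2 ratios used a prior count of 0.5 and 95% exact Clopper-Pearson binomial intervals, in Python 3.11.15. A gene was called at an absolute log2 ratio of 1 with a mean count of at least 50. The ratio script was tested on simulated data. Named genes were those with a mean of at least 5 TPM, the highest and lowest of each subfamily, any called gene, and genes with several coding forms. Coding sequences came from the M21 annotation and transcripts; protein sequence tables were not used here. Rows that name no gene held 9 and 6.49 expected counts and were left out. Some genes are not reported here.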

Additional observations from a re-analysis of the deposited data

How the results depend on the processing

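Of 396 alternative values computed for 102 results, 0 changed sign among called values. The number of genes at 1 TPM or more in both libraries was 32, and stayed within 32 to 35 with minimums of 0.5 and 2 TPM, FPKM, the second program, and 33 without either library. The count of genes that differed 2-fold was 1; it became 2 with a minimum mean count of 10, 4 with no minimum, 0 with the second program and 2 at a 1.5-fold limit, and was 1 with other scalings or a prior count of 2. The share of Kcnab moved from 37.6% to 26.9% by expected counts and 40.3% by the second program, and was 36.9% to 38.2% in single libraries. Genes with 1 leading transcript numbered 21, and 13 of 16 at 5 TPM or more, where fewer genes entered; with single libraries 23 to 25. The median log2 ratio lay between -0.11 and -0.05. By the second program 35 of 43 genes had a lower TPM, with a median of 0.836 of the first among those at 1 TPM or more, against 0.842 over all genes. Ratios cannot be computed from 1 library, and no paired analysis was possible because there is 1 group. Genes under 50 reads have wide counting intervals, and transcript shares resting on under 100 reads are imprecise.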
